A study of Mus musculus with 6 samples.

Results

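The circadian clock genes measured here were 10 genes taken by symbol from a count table of 22939 genes: the period genes Per1, Per2 and Per3, the cryptochromes Cry1 and Cry2, the activator Clock, the nuclear receptors Nr1d1 and Nr1d2, and the output factors Dbp and Tef. The rule used the symbols alone, and the set was proposed with earlier results of these data known. The RNA-seq data held 3 control (ctrl-Treg) and 3 sorafenib-treated (Sora-Treg) libraries of mouse regulatory T (Treg) cells, sorafenib (Sora) being a kinase inhibitor given in liver cancer. Per the methods of the study, naive CD4+ T cells from the spleen and lymph nodes of Foxp3GFP mice, a knock-in on the C57BL/6J background in which green fluorescent protein reports the Treg factor Foxp3, were grown on plate-bound anti-CD3 and anti-CD28 antibodies with TGF-β1 and antibodies to IFN-γ and IL4, with or without Sora, and the GFP+ cells were sorted. Both groups therefore carried the same allele, were stimulated and polarized in the same way and passed the same sort. These are induced Treg cells made in a dish, not Treg cells from a tissue. The dose and days of culture of these 6 libraries, the hour of harvest, and the number and age of the animals behind each were not given in the sources used here. Whether libraries of a group came from separate animals or cultures is not stated either, so p-values measure only the spread between these libraries.

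The clock is a feedback loop of transcription that runs in nearly every mammalian cell. CLOCK and its partner BMAL1, the product of Arntl, bind E-boxes and switch on the Per and Cry genes, whose proteins return to the nucleus and block CLOCK and BMAL1. In a second loop the same activators drive Nr1d1 and Nr1d2, which encode the repressors REV-ERBα and REV-ERBβ, and these compete with ROR receptors on the Arntl gene. Dbp and Tef encode PAR bZIP activators that read the clock out through D-boxes, where the repressor NFIL3 competes with them. Each loop oscillates over the day, so the level of a clock transcript in a culture depends both on how strongly the loop runs and on its phase, and the phases of single cells in an unsynchronized culture differ. Each of these libraries was a single harvest, so level and phase cannot be told apart.

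The letters of these elements were looked for in promoter sequence. RefSeq promoter windows (build GRCm38.p6, 300 bases around an annotated start) were found for 9 of the 10 genes, in 13 windows, and none was found for Per2. The stretches shown here run from -250 to -11, 5′ to 3′ on the strand of the gene. They were chosen because each holds an E-box (CACGTG), a weaker E′-box (CACGTT, or AACGTG when read on the other strand) or a D-box (TTATGTAA), which are in capitals.
Per1, chr11:69098699-69098938, plus strand: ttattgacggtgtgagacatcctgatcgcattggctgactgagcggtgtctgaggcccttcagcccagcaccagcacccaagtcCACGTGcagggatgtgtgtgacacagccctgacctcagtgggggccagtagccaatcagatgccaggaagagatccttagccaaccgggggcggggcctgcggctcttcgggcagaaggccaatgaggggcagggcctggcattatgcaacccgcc
Per3, chr4:151044676-151044915, minus strand: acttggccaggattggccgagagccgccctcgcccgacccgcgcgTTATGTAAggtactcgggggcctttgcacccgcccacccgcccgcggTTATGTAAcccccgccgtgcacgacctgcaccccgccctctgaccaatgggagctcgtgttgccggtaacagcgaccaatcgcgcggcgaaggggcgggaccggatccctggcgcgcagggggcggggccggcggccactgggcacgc
Cry1, chr10:85185065-85185304, minus strand: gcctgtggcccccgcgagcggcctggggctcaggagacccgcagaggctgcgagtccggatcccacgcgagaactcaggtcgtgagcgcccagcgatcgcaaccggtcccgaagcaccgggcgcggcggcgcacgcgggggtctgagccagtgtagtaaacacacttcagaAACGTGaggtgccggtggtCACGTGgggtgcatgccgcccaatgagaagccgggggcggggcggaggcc
Tef, the second of its start sites, chr15:81811164-81811403, plus strand: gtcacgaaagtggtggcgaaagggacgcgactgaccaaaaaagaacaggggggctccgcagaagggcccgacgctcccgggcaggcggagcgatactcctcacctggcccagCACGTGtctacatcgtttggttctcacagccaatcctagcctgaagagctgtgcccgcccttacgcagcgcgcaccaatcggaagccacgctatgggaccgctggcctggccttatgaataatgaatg
Nr1d1, chr11:98775388-98775627, minus strand: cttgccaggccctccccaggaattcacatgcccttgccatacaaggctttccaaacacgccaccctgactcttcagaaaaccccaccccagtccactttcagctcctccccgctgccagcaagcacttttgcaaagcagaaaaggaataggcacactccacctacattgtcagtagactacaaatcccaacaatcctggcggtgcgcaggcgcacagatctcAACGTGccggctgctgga

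Of the 9 genes with a window, 3 held the E-box letters, searched on both strands. They were Per1 at -166 in the first of its windows, Cry1 at -60 and Tef at -127 and -138 of its separate start sites. Counted by window, these letters were in 4 of the 13 and in 7.15% of all 32851 mouse promoter windows. The E′-box letters occurred in Cry1 at -79, Cry2 at -166 and Nr1d1 at -28, 3 of the 13 windows, against 4.68% of all windows. Per3 was the only one of the 9 with the D-box TTATGTAA, which it held at -205 and -158 of 1 window, against 0.938% of all windows. The other D-box spelling, TTACGTAA, was in none of the 9 and in 0.119% of windows. AGGTCA, the core that REV-ERB and ROR receptors read, occurred in Per1 at -137 and Clock at -119, each in the first of its windows, and in Nr1d2 at -77. These were 3 of the 13 windows, against 16.3% of all windows. The cyclic AMP response element TGACGTCA was in none of the 9 and in 1.79% of windows. The Dbp window, the second Per1 window and the other Clock windows held none of these letters. No searched string contains another, and a match is a description of letters, not a measured binding site.

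All 10 genes passed the filter on low counts, with 50 to 3007 reads per gene and library, and all 10 were tested. Counts were compared by the quasi-likelihood test of edgeR with Benjamini-Hochberg adjustment over 13463 tested genes, and a gene was called at an adjusted p under 0.05. Levels of a gene are given as CPM, its reads per 1000000 of its library after TMM scaling, which sets libraries to a shared level by trimmed means of their log ratios, and log2 fold changes are Sora-Treg minus ctrl-Treg with their standard error (SE). In Sora-Treg cells, 3 of the 10 were higher (Per1, Per3 and Nr1d2), 6 were lower (Per2, Cry1, Clock, Nr1d1, Dbp and Tef) and Cry2 was not called. Calls were frequent in this comparison: 59.6% of all tested genes were called, 29.7% higher and 29.9% lower, against 90% of the clock genes. None of the 10 passed the further limit of a 2-fold change, with edgeR or with DESeq2, which 11.3% of all tested genes passed (6.3% upward and 4.97% downward). Values of both groups lay fully apart for 8 of the 10, 3 higher and 5 lower, against 63.7% of all tested genes (31.8% higher and 32% lower). The median log2 fold change of the 10 was -0.20 and their median absolute log2 fold change 0.44, beside -0.0035 and 0.28 over all tested genes. When libraries were scaled by their totals alone, the median of all genes moved to -0.119, and 2 of the 10 were then higher and 7 lower (2862 and 5614 genes over the whole table, against 3994 and 4028 with TMM scaling).

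**Figure D1:**
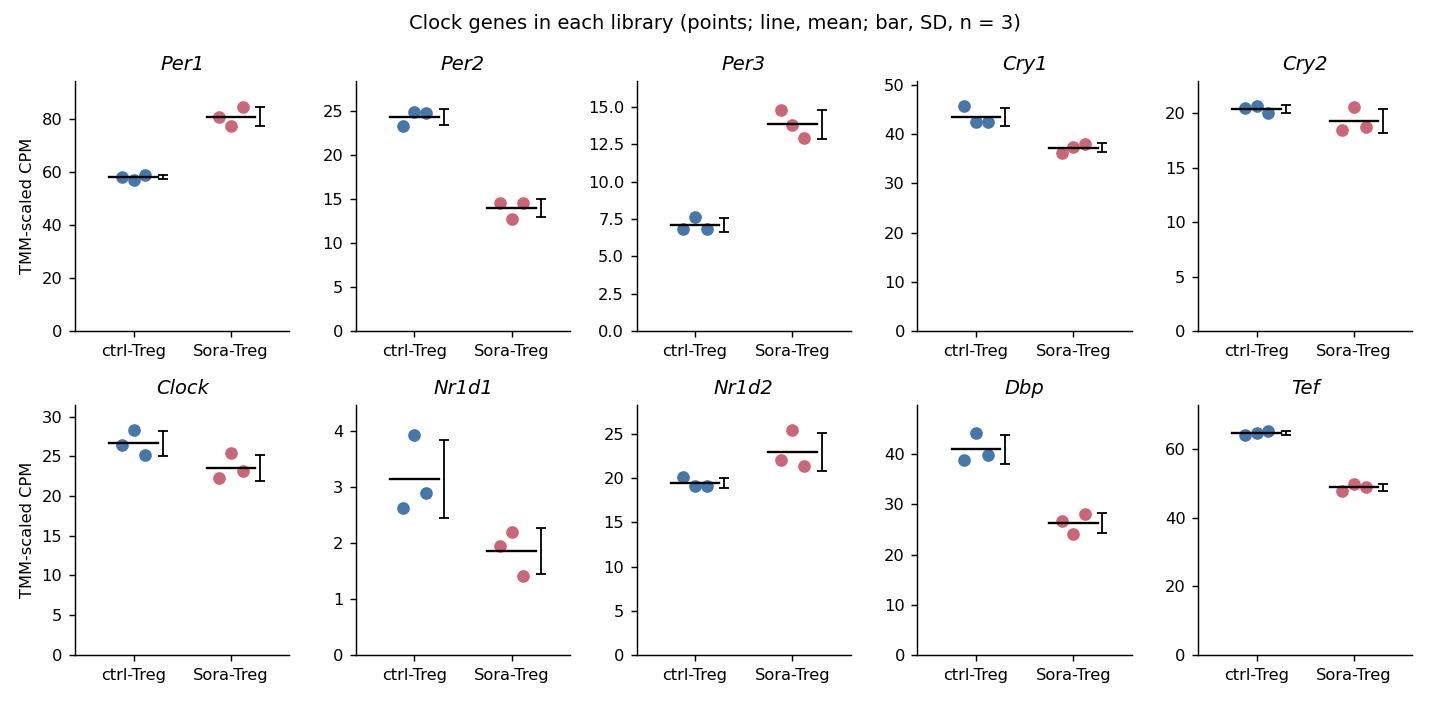
TMM-scaled CPM of each clock gene in each library, with a panel and a vertical axis starting at 0 for every gene; points are libraries, lines are means and bars are SD over 3 libraries. The groups stand apart in every panel except those of Cry2 and Clock, with Sora-Treg higher for Per1, Per3 and Nr1d2 and lower for Per2, Cry1, Nr1d1, Dbp and Tef.

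The period genes encode the proteins that start the repressing arm of the cycle, and they moved in opposite directions. Per1, which is also switched on quickly by extracellular signals, stood at 58.4, 57.2 and 59 TMM-scaled CPM in the 3 ctrl-Treg libraries and at 81, 77.5 and 84.5 in the 3 Sora-Treg libraries. The lowest Sora-Treg library lay well above the highest ctrl-Treg library, and the mean rose 1.39-fold from 58.2 ± 0.901 to 81 ± 3.48 CPM (SD, n = 3; log2 fold change 0.48 ± 0.04 SE, edgeR adjusted p = 1.38e-09). Per2, a core repressor of the loop, stood at 23.3, 24.9 and 24.8 CPM in ctrl-Treg and at 14.6, 12.8 and 14.6 in Sora-Treg cells. Its groups did not overlap either, but in the other direction, and Per2 fell by 42.5% (24.4 ± 0.879 to 14 ± 1.06 CPM, SD, n = 3; log2 fold change -0.80 ± 0.08, edgeR adjusted p = 4.76e-09).

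Per3, a weaker repressor than its relatives, had the largest change among the 10 genes with TMM scaling, while on library totals alone Per2 (-0.91 on the log2 scale) passed it (0.84). It stood at 6.83, 7.61 and 6.86 CPM in ctrl-Treg and at 14.8, 13.8 and 12.9 in Sora-Treg cells. Every Sora-Treg value was far above every ctrl-Treg value, and the mean rose 1.95-fold (7.1 ± 0.442 to 13.8 ± 0.969 CPM, SD, n = 3; log2 fold change 0.96 ± 0.10, edgeR adjusted p = 1.36e-08). That estimate sat just under the 2-fold limit, and it passed the limit without control replicate 2 (1.02 on the log2 scale) or without sorafenib replicate 3 (1.01). Per3 shares a stretch of the genome with Camta1 on the same strand, without a shared exon base in GENCODE M21, and Camta1 was also higher (log2 fold change 0.49 ± 0.14, edgeR adjusted p = 0.00413).

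The cryptochromes, the stronger repressors of the loop, moved little. Cry1 stood at 45.7, 42.5 and 42.5 CPM in ctrl-Treg and at 36.2, 37.5 and 38.1 in Sora-Treg cells. These groups did not overlap, and Cry1 fell by 14.5% (43.6 ± 1.84 to 37.2 ± 1 CPM, SD, n = 3; log2 fold change -0.23 ± 0.05, edgeR adjusted p = 5.86e-04). Cry2 stood at 20.5, 20.7 and 20 CPM in ctrl-Treg and at 18.5, 20.6 and 18.8 in Sora-Treg cells. The second Sora-Treg library lay inside the ctrl-Treg range, and Cry2 was not called (log2 fold change -0.08 ± 0.07, edgeR adjusted p = 0.353). On library totals alone it was called lower, at -0.20 (edgeR adjusted p = 0.0217).

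Clock, the activator of the loop and a partner of BMAL1, stood at 26.4, 28.3 and 25.2 CPM in ctrl-Treg and at 22.2, 25.4 and 23.1 in Sora-Treg cells. The groups overlapped by the second Sora-Treg library and the third ctrl-Treg library, and the call was a narrow one (log2 fold change -0.18 ± 0.07, edgeR adjusted p = 0.0315). It was lost when control replicate 1 (-0.18), control replicate 2 (-0.13), sorafenib replicate 1 (-0.14) or sorafenib replicate 3 (-0.16) was left out, and with DESeq2 (-0.18, adjusted p = 0.0699).

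The REV-ERB genes, which close the second loop, also moved apart from each other. Nr1d1 had the fewest reads of the 10, at 2.62, 3.93 and 2.88 CPM (103, 143 and 92 reads) in ctrl-Treg and 1.94, 2.2 and 1.4 CPM (59, 70 and 50 reads) in Sora-Treg cells. The groups did not overlap, although the second ctrl-Treg library stood well above the others, and Nr1d1 fell by 41.4% (log2 fold change -0.77 ± 0.23, edgeR adjusted p = 0.00593). Without control replicate 2 the log2 fold change was -0.57 and the call was lost (edgeR adjusted p = 0.0667). Nr1d2 stood at 20.1, 19.1 and 19.1 CPM in ctrl-Treg and at 22, 25.4 and 21.4 in Sora-Treg cells. All Sora-Treg libraries were higher, the second most of all, and the mean rose 1.18-fold (log2 fold change 0.24 ± 0.08, edgeR adjusted p = 0.0098). Without sorafenib replicate 2 the value was 0.16 and the call was lost (edgeR adjusted p = 0.0783), as it was on library totals alone (0.12, edgeR adjusted p = 0.172). Nr1d1 shares 263 of its 3077 exon bases (8.55%) with Thra, the thyroid hormone receptor gene on the opposite strand, which was higher in Sora-Treg cells (log2 fold change 0.43 ± 0.06, edgeR adjusted p = 2.06e-06). Whether the counting used strand is not stated, so reads from that overlap cannot be assigned.

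The output factors Dbp and Tef both fell. Dbp, among the most strongly rhythmic transcripts of many tissues, stood at 38.8, 44.3 and 39.9 CPM in ctrl-Treg and at 26.7, 24.1 and 28 in Sora-Treg cells. The groups were widely separated, and Dbp fell by 36% (41 ± 2.91 to 26.2 ± 1.97 CPM, SD, n = 3; log2 fold change -0.64 ± 0.06, edgeR adjusted p = 1.10e-08). Dbp shares 539 of its 2993 exon bases (18%) with Sphk2, a sphingosine kinase gene on the opposite strand with 910 to 1297 reads per library. Sphk2 was higher in Sora-Treg cells (log2 fold change 0.22 ± 0.06, edgeR adjusted p = 0.00322). As for Nr1d1, reads from that overlap cannot be assigned. Tef stood at 64.1, 64.8 and 65.5 CPM in ctrl-Treg and at 47.8, 49.8 and 49 in Sora-Treg cells. Replicates lay close together in both groups, and Tef fell by 24.6% (64.8 ± 0.742 to 48.9 ± 1.05 CPM, SD, n = 3; log2 fold change -0.41 ± 0.04, edgeR adjusted p = 2.07e-08). Smaller overlaps on the opposite strand were annotated for Tef (Gm17597, 2.45% of exon bases, 0 to 7 reads) and Cry2 (D930015M05Rik, 4.67%, not analysed here). Clock overlaps Gm43658 and Ube2n-ps1 without a shared exon base, and no overlapping gene was annotated for Per1, Per2, Cry1 or Nr1d2.

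The other transcription factors of the clock, a list of 10 genes, included 9 in the count table, and Rorb was not analysed here. Of the 9, 4 were higher and 3 lower, with 2 not called (77.8% called, against 59.6% of all tested genes). Nfil3, the repressor that competes with Dbp and Tef for D-boxes and that also acts in immune cells, changed far more than any of the 10 clock genes. It stood at 57.5, 60.1 and 58.4 CPM in ctrl-Treg and at 202, 189 and 198 in Sora-Treg cells. This was a 3.35-fold rise in the opposite direction to Dbp and Tef (log2 fold change 1.74 ± 0.04, edgeR adjusted p = 1.03e-20), the gene ranking 38 by p among all tested genes.

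Rora, a ROR receptor that activates Arntl where REV-ERB proteins repress it, was higher. It stood at 78.2, 81.7 and 80 CPM in ctrl-Treg and at 98.8, 114 and 111 in Sora-Treg cells (log2 fold change 0.43 ± 0.05, edgeR adjusted p = 2.30e-08). Its groups did not overlap. Arntl itself was not called: it stood at 24.3, 32 and 29.9 CPM in ctrl-Treg and at 26.1, 30.6 and 27 in Sora-Treg cells, with overlapping groups (log2 fold change -0.04 ± 0.08, edgeR adjusted p = 0.703).

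Npas2, which can stand in for Clock as the partner of BMAL1, stood at 14.3, 12.8 and 13.3 CPM in ctrl-Treg and at 9.52, 8.72 and 8.79 in Sora-Treg cells. It fell by 33.2%, beside 11.6% for Clock (log2 fold change -0.58 ± 0.09, edgeR adjusted p = 9.06e-06). Arntl2, the relative of Arntl, was scarce and fell from 2.18 ± 0.291 to 1.07 ± 0.405 CPM (SD, n = 3; log2 fold change -1.03 ± 0.28, edgeR adjusted p = 0.00326). Hlf, the remaining PAR bZIP gene, had only 7 to 31 reads per library (log2 fold change -1.50 ± 0.49, edgeR adjusted p = 0.0116), and that call was lost without control replicate 3 (-1.05, edgeR adjusted p = 0.11). Of the E-box repressors, Bhlhe40 had the highest level per length of the list (221 ± 4.41 FPKM in ctrl-Treg, SD, n = 3) and stood at 662, 647 and 672 CPM in ctrl-Treg and 774, 769 and 778 in Sora-Treg cells (log2 fold change 0.23 ± 0.02, edgeR adjusted p = 3.18e-08). Ciart, a repressor of CLOCK and BMAL1, rose from 18.4 ± 1.02 to 22.3 ± 1.36 CPM (SD, n = 3; log2 fold change 0.27 ± 0.07, edgeR adjusted p = 0.00301), and its promoter window held 3 E-boxes, at -116, -58 and -44. The Ciart call was lost on library totals alone (0.16, edgeR adjusted p = 0.0719) and by limma with no filter on low FPKM (0.14, adjusted p = 0.13). Bhlhe41 was not called (log2 fold change -0.42 ± 0.19, edgeR adjusted p = 0.0643), and it was called lower without control replicate 1 (-0.55) or without sorafenib replicate 1 (-0.60). The promoter window of Bhlhe41 held an E-box too, at -153, and no window was found for Bhlhe40.

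**Figure D2:**
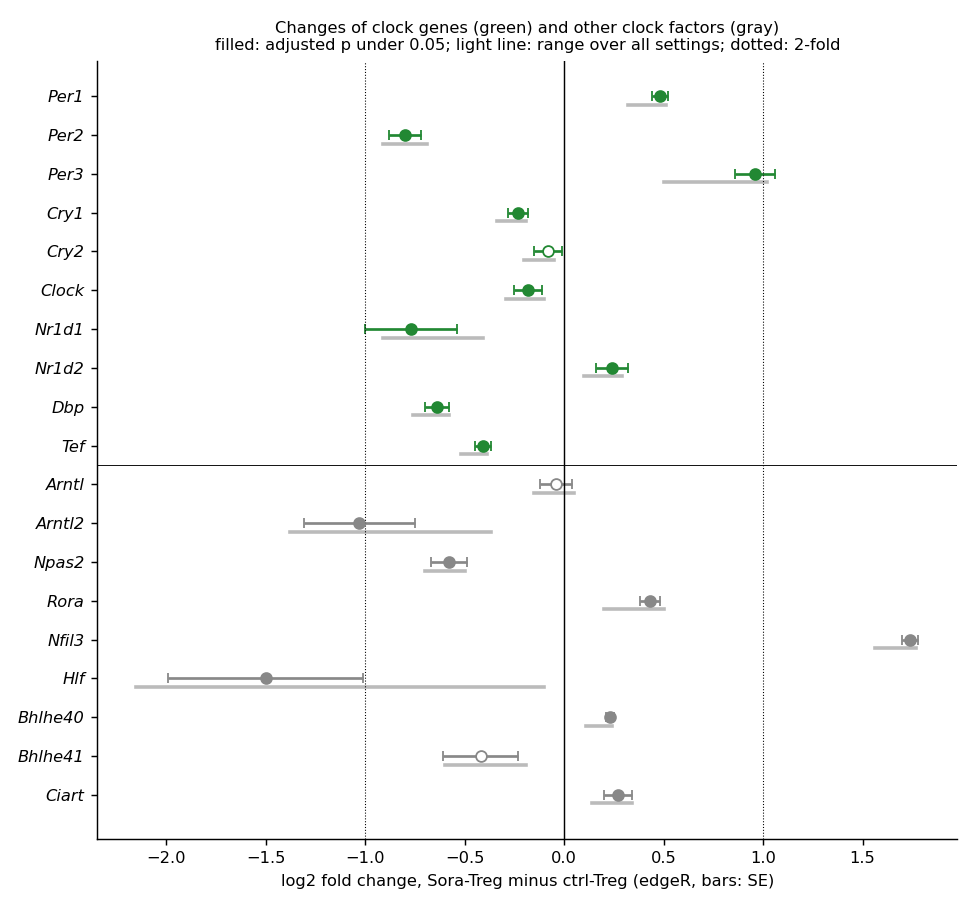
Log2 fold changes (horizontal axis, Sora-Treg minus ctrl-Treg) of the 10 clock genes in green and the 9 other clock factors in gray, with edgeR estimates as points, SE as bars, calls at an adjusted p under 0.05 as filled points and the range over all settings as light lines. Per1, Per3 and Nr1d2 lie to the right of 0 and the other 7 clock genes to the left, all within the dotted 2-fold limits, while Nfil3 lies at 1.74.

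Levels of different genes were compared only per length, as deposited FPKM (fragments per kilobase of gene and 1000000 reads). In ctrl-Treg cells the order was Dbp (16.9 ± 1.15 FPKM, SD, n = 3), Cry1 (11.4 ± 0.518), Tef (9.65 ± 0.0911), Per1 (7.06 ± 0.121), Cry2 (5.13 ± 0.0944), Nr1d2 (4.17 ± 0.14), Per2 (4.15 ± 0.137), Clock (2.74 ± 0.158), Nr1d1 (1.18 ± 0.258) and Per3 (1.09 ± 0.065). Neighbours in this order stood apart in every library except Nr1d2 and Per2, and Nr1d1 and Per3, whose ranges overlapped. In Sora-Treg cells Dbp (9.97 ± 0.755), Per1 (9.07 ± 0.394) and Cry1 (8.99 ± 0.229) overlapped at the top. Tef (6.71 ± 0.133) followed alone, then Nr1d2 (4.54 ± 0.42) with Cry2 (4.48 ± 0.259), which overlapped. Clock (2.23 ± 0.152), Per2 (2.2 ± 0.169) and Per3 (1.95 ± 0.139) formed a further overlapping group, and Nr1d1 (0.642 ± 0.14) was lowest.

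The order depended on the gene lengths. The length behind the deposited FPKM differed from the summed exons of GENCODE M21 by a factor of 0.655 (Cry2) to 1.52 (Per1) over the 10 genes. Per kilobase of GENCODE exons, Per1 ranked 3 of 10 in ctrl-Treg (10.3 ± 0.16 CPM per kilobase) and 1 of 10 in Sora-Treg cells (14.4 ± 0.618), while Dbp went from rank 1 to rank 3 and Cry1 was at rank 2 in both groups. Nr1d1 and Per3 took the bottom ranks in both groups on that scale.

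**Figure D3:**
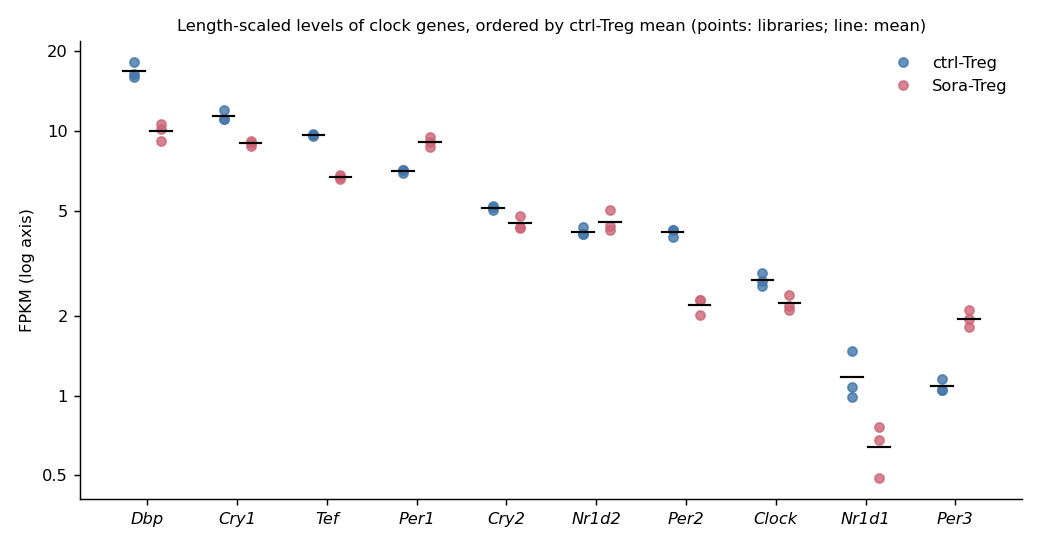
FPKM of the 10 clock genes (log axis), ordered from left to right by their ctrl-Treg mean; points are libraries (ctrl-Treg in blue, Sora-Treg in red) and lines are means. Dbp has the highest mean in both groups on this scale, though the order depends on gene lengths. In Sora-Treg cells Per1 moves up to overlap Dbp and Cry1, while Per2 moves down beside Clock and Per3.

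The balance of related genes was followed as ratios within each library. These ratios of FPKM were chosen after the values were seen and are given as a description. Per1 to Per2 was 1.78, 1.64 and 1.69 in ctrl-Treg and 3.96, 4.32 and 4.11 in Sora-Treg libraries. Per3 to Per2 was 0.263, 0.274 and 0.248 in ctrl-Treg and 0.913, 0.968 and 0.79 in Sora-Treg libraries. Neither ratio overlapped between groups, and on this scale Per3, far below Per2 in ctrl-Treg cells, came close to it in Sora-Treg cells. Per kilobase of GENCODE exons, Per3 stayed further below Per2 in Sora-Treg cells (means of 1.44 and 2.39 CPM per kilobase). Per1 to Per3, both higher in Sora-Treg cells, was 6.79, 5.97 and 6.83 in ctrl-Treg and 4.34, 4.47 and 5.2 in Sora-Treg libraries. Nr1d2 to Nr1d1 was 4.39, 2.77 and 3.78 in ctrl-Treg and 6.45, 6.59 and 8.67 in Sora-Treg libraries. The D-box repressor to activator ratio, Nfil3 to Dbp, was 0.839, 0.769 and 0.829 in ctrl-Treg and 4.29, 4.45 and 4.02 in Sora-Treg libraries. It lay below 1 in every ctrl-Treg library and above 4 in every Sora-Treg library, although the place of 1 on this scale depends on gene lengths. Per kilobase of GENCODE exons, mean Nfil3 was above mean Dbp in both groups. The means were 29 and 13.7 CPM per kilobase in ctrl-Treg and 97 and 8.77 in Sora-Treg cells. Cry1 to Cry2 moved least among the pairs of clock genes, from 2.32, 2.13 and 2.21 to 2.03, 1.89 and 2.11. Dbp to Tef was 1.68, 1.89 and 1.68 in ctrl-Treg and 1.54, 1.34 and 1.58 in Sora-Treg libraries. Arntl to Clock, the balance of the activating pair, overlapped between groups (0.483, 0.594 and 0.624 against 0.618, 0.633 and 0.615). Which of the pair was higher depended on gene lengths. Per kilobase of GENCODE exons, Arntl and Clock had means of 3.82 and 1.94 CPM per kilobase in ctrl-Treg and 3.71 and 1.72 in Sora-Treg cells.

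**Figure D4:**
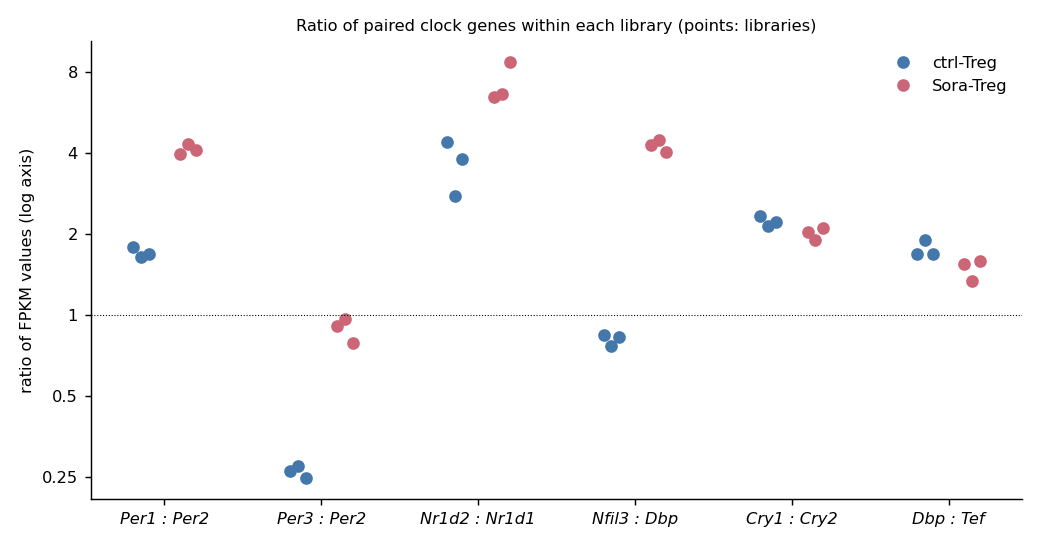
Ratio of the FPKM values of paired clock genes within each library (log axis, dotted line at 1); points are libraries, ctrl-Treg in blue and Sora-Treg in red. Nfil3 to Dbp goes from at most 0.839 to at least 4.02, and the place of the line at 1 depends on gene lengths. Per1 to Per2 goes from at most 1.78 to at least 3.96, and Cry1 to Cry2 and Dbp to Tef shift slightly downward.

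The genes that act on clock proteins and on the loops were taken from 4 further lists. Of 13 modifiers of clock proteins (kinases, ubiquitin ligases and deubiquitinases), 2 were higher, 2 lower and 9 not called, 30.8% called against the 59.6% of all tested genes. Csnk1e, the casein kinase that marks PER proteins for destruction, had the largest change among those called, from 43.1, 44.5 and 42.9 CPM in ctrl-Treg to 29.8, 31.1 and 27.9 in Sora-Treg cells (log2 fold change -0.56 ± 0.05, edgeR adjusted p = 7.04e-09). Its relative Csnk1d was not called, at -0.05 ± 0.03 (edgeR adjusted p = 0.205). This gene was chosen after its values were seen. The called remainder changed little: Siah2, a ligase for REV-ERBα, by -0.21 ± 0.06, the kinase subunit gene Csnk2a2 by 0.10 ± 0.04, and Fbxw11, a ligase subunit for PER proteins, by 0.08 ± 0.03 (edgeR adjusted p from 0.00453 to 0.0391).

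Of 12 coregulators, 6 were higher and 2 lower (66.7% called, near the 59.6% of all tested genes). Ep300, a histone acetyltransferase recruited by CLOCK and BMAL1, stood at 170, 168 and 171 CPM in ctrl-Treg and at 234, 243 and 242 in Sora-Treg cells (log2 fold change 0.50 ± 0.03, edgeR adjusted p = 1.78e-12). Tbl1xr1, a subunit of the corepressor complex that REV-ERB proteins use, rose 1.43-fold (log2 fold change 0.52 ± 0.04, edgeR adjusted p = 1.87e-10). Sirt1, a deacetylase acting on clock proteins, rose 1.34-fold and the acetyltransferase gene Kat2b 1.27-fold (edgeR adjusted p = 3.83e-05 and 7.89e-06).

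Of 9 genes that carry signals to the Per promoters, 3 were higher and 3 lower (66.7% called, near the 59.6% of all tested genes). Crem, a cyclic AMP responsive factor that has activating and repressing isoforms, stood at 38.5, 37.4 and 42 CPM in ctrl-Treg and at 117, 123 and 114 in Sora-Treg cells (log2 fold change 1.59 ± 0.05, edgeR adjusted p = 2.24e-18). Creb1, the activator that binds the same element, fell from 116 ± 3.63 to 81.5 ± 5.63 CPM (SD, n = 3; log2 fold change -0.51 ± 0.04, edgeR adjusted p = 1.02e-09). Sik1, a kinase that restrains CREB coactivators, rose 1.39-fold (log2 fold change 0.48 ± 0.05, edgeR adjusted p = 4.76e-09), and the coactivator gene Crtc1 changed by -0.19 ± 0.08 with overlapping groups (edgeR adjusted p = 0.0373).

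Of 13 genes that cycle in many tissues, 12 were tested, and Pdk4 was below the filter. Of the 12, 6 were higher and 5 lower (91.7% called, against 59.6% of all tested genes). Sgk1, a kinase gene, stood at 104, 98.8 and 102 CPM in ctrl-Treg and at 450, 476 and 462 in Sora-Treg cells, a 4.56-fold rise (log2 fold change 2.19 ± 0.03, edgeR adjusted p = 8.12e-24). Hif3a, a member of the hypoxia-inducible factor family, rose 3.01-fold (log2 fold change 1.59 ± 0.09, edgeR adjusted p = 2.77e-13), and Tspan4, a tetraspanin gene at low counts, rose 1.96-fold (0.97 ± 0.23, edgeR adjusted p = 9.94e-04). Wee1, a mitotic inhibitor gene with E-box control, stood at 19.4, 18.6 and 20.4 CPM in ctrl-Treg and at 11.6, 9.69 and 9.89 in Sora-Treg cells (log2 fold change -0.90 ± 0.09, edgeR adjusted p = 5.42e-09). Many of these genes respond to other signals too.

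The libraries held 30727686 to 37717324 counted reads. Foxp3 was present throughout, at 269, 254 and 252 CPM in ctrl-Treg and 278, 268 and 271 in Sora-Treg cells. Its groups overlapped (log2 fold change 0.07 ± 0.03, edgeR adjusted p = 0.0405). With TMM scaling, 6 of 7 Treg and T cell markers were called higher in Sora-Treg cells (85.7%, against 29.7% of all tested genes), with none lower. As deposited FPKM, without TMM scaling, mean Foxp3 went from 68.5 to 66.6 and mean Cd4 (0.06 ± 0.03 by edgeR) from 204 to 196. Il2ra, Ctla4, Cd3e and Cd3g were higher on both scales, and they and Cd4 were named after their values were seen. Myeloid markers were not level across libraries: their summed level was 92.2 and 91.8 CPM in the first and second ctrl-Treg libraries, and 24.5, 22.2, 42.1 and 20.5 in the third ctrl-Treg library and the 3 Sora-Treg libraries. Of 7 listed, 6 were tested and 5 called lower (29.9% of all tested genes were). B cell markers summed to between 9.71 and 10.7 CPM in ctrl-Treg and 6.09 and 7.68 in Sora-Treg cells (4 of 4 tested were lower, of 5 listed). CD8 T and NK cell markers summed to between 15.4 and 18.3 CPM in all libraries, most of it from Cd8b1, and of the 3 tested 1 was higher (Eomes, log2 fold change 1.03 ± 0.17, edgeR adjusted p = 2.02e-05) and 1 lower (Cd8a, -0.71 ± 0.22, edgeR adjusted p = 0.00872). These genes were named after their values were seen. The erythroid and platelet markers summed to at most 0.406 CPM. No listed marker was at 0 in all 6 libraries. In such bulk samples fewer cells of a type and less RNA per cell cannot be told apart.

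The part of the myeloid difference in these results was not tested. A further fit used the third ctrl-Treg library as the only control, a setting chosen after seeing the data. Its spread comes from the Sora-Treg libraries alone and the lone control is assumed to vary like them, so only effect sizes are given. Per1 (log2 fold change 0.46), Per2 (-0.83), Per3 (1.01), Dbp (-0.60) and Tef (-0.42) changed little from their values with all libraries. Cry1 (-0.19), Clock (-0.10), Nr1d1 (-0.64) and Nr1d2 (0.26) kept their direction. Nfil3 was at 1.75 and Arntl2 at -0.88. Of the 10 clock genes, these 5 called ones also kept direction and call under each of 18 alternative settings, with log2 fold changes from 0.32 to 0.51 for Per1, -0.91 to -0.69 for Per2, 0.50 to 1.02 for Per3, -0.76 to -0.58 for Dbp and -0.52 to -0.39 for Tef.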

How the data were processed

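The authors deposited raw read counts per gene symbol and FPKM values for the same 6 libraries. The submitters' processing notes name fastp, HISAT2, HTSeq, R 3.2.0, DESeq2 and GRCm39, whereas the methods of the study name Bowtie2 and GRCm38, so no coordinates of counted genes are printed. The use of strand and the annotation release are not given in the sources used here. The deposited FPKM equalled count divided by a fixed gene length and the library total (largest relative difference 1.15e-07 over 12783 genes), and so carry no TMM factor and are no separate measurement.

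Groups came from sample titles. Counts were tested with edgeR 4.0.16 in R 4.3.3 (quasi-likelihood, TMM, filterByExpr, no covariate, two-sided, 13463 genes). SE is the one the F statistic implies. Alternatives used other scalings and filters, DESeq2 1.42.0, a robust fit, a replicate block, limma 3.58.1 on log2(FPKM + 1) or log2(FPKM + 0.1), and each library left out. The code was tested on simulated data. Within groups, libraries differed by more than sampling noise (chi-square per degree of freedom 3.48 to 6.23), so none was a copy. Libraries held 30727686 to 37717324 counts, the biological coefficient of variation was 4.29%, and counting error adds most to genes with few reads (Nr1d1, Hlf, Arntl2).

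Members and gene lists, written from general knowledge, were chosen with earlier results of these data known. Named genes were all members, all other clock transcription factors, up to 4 genes per remaining list by absolute log2 fold change among those called with a mean CPM of at least 1, overlapping genes and Foxp3. Some further genes were named after their values were seen, as stated beside them. Promoter windows came from RefSeq (GRCm38.p6) and overlaps from GENCODE M21. Protein sequences and the Per2 promoter were not analysed here, and some genes of the lists are not reported here and were left out of their counts.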

Additional observations from a re-analysis of the deposited data

How the results depend on the processing

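Whether same-numbered libraries were paired is not stated in the labels. They had correlations of -0.0438, 0.0591 and 0.0299 in their deviations from the group means. These values weigh all tested genes alike, also those with few reads, so they cannot decide whether a culture or day was shared. The fit with the replicate number as a block called the clock genes as before (3 higher, 6 lower, Cry2 at -0.08), 22 higher and 15 lower genes of the other 5 clock lists (21 and 15 without it), and 4057 and 4064 of all genes. Direction held for the 10 clock genes under every setting that tested them (18 each, 16 for Nr1d1, which the FPKM filter removed). With the third control alone, a setting chosen after seeing the data, Per3 was at 1.01. Cry1 was at -0.19, Clock at -0.10, Nr1d1 at -0.64 and Nr1d2 at 0.26 in that fit. On library totals alone Cry2 was called at -0.20, Nr1d2 was not (0.12), and 25 genes of the other lists were lower and 15 higher. With DESeq2 Clock was not called (-0.18). With limma on log2(FPKM + 1), log2(FPKM + 0.1) and log2(FPKM + 1) without a filter, Cry2 was called (-0.16, -0.19 and -0.16), Nr1d2 was not (0.10, 0.12 and 0.10), and without the filter Clock was not (-0.21). Those fits called 2357, 2350 and 2577 of all genes higher and 4876, 4867 and 4973 lower (3994 and 4028 with edgeR), a balance that library totals alone also moved (2862 and 5614). Past 2-fold they called 274, 373 and 274 higher and 189, 371 and 185 lower, against 848 and 669 with edgeR, and without the filter 13 genes of the other lists were higher. A pseudocount shrinks the folds of low genes by construction, and the cause of the other losses was not tested. Leaving out single libraries gave 0 to 1 clock genes past 2-fold higher (Per3), -0.23 to -0.13 for Clock, -0.91 to -0.57 for Nr1d1 and 0.16 to 0.29 for Nr1d2. For Arntl it gave -0.15 to 0.05, with the sign turned to 0.05 without control replicate 2 and to 0.0071 without sorafenib replicate 1. As log2 ratios of mean FPKM, without TMM, Per1 was at 0.36, Cry1 at -0.34, Cry2 at -0.19 and Tef at -0.52. Gene lengths from GENCODE, chosen after seeing the data, changed the ranks of levels as given above. Depth limited Nr1d1 (50 to 143 reads) most among the clock genes.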
